A study of Mus musculus with 4 samples.

Results

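The T cell receptor alpha variable (Trav) segments are the group described here. They were taken as every gene symbol beginning with Trav that had at least 10 UMIs, that is, counted RNA molecules, summed over 4 libraries of tumour-infiltrating CD8-positive T cells. This rule kept 77 of the 128 Trav symbols among the 32285 genes counted. The libraries fall into 2 groups of 2. sgArid1a libraries are labelled with a guide that targets Arid1a, whose protein binds DNA as part of the SWI/SNF remodelling machinery, and sgScr libraries with a scrambled guide, the control. All came from B16F10 melanoma tumours in C57BL/6J mice aged 6 to 8 weeks, sorted as living CD45+ CD3+ CD8+ cells and prepared with droplet kits that read RNA from its 5-prime end. The labels do not say which cells carried a guide, nor that replicates came from separate mice, so p-values here measure only the spread between libraries, which may be technical.

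A T cell receptor alpha chain is made when one Trav segment is joined to a joining segment and spliced to the constant gene Trac. The Trav segment encodes the first 2 of the 3 loops by which the chain contacts a peptide and its MHC molecule. A clone keeps its rearrangement as it divides, so cells of one clone share a Trav segment, and a share of cells can rise because a few clones have grown. In C57BL/6 mice the locus holds duplicated blocks, whose segments carry the letters d or n in their names and differ from the undoubled copy by few bases. Segments named dv can also join the delta chain of gamma delta T cells.

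All 77 segments lie on the plus strand of chromosome 14, between bases 52427928 and 53977678 of GRCm38. Of these, 71 are annotated as functional variable genes and 6 as pseudogenes. The UMIs of a member summed over the libraries had a lowest value of 11 (a median of 588) and a highest of 5336, and the other 51 symbols had at most 7. Near-identical sequence limits what can be seen, because a read that fits more than one segment is usually dropped in counting. Among functional segments for which no 50-base stretch of the transcript is unique within the Trav group, 1 of 35 was a member and 22 were at 0 UMIs. Of the 39 segments with more than 25 and up to 75% unique stretches, 38 were members, with a median of 995 UMIs. Trav11 and Trav11d, the segments of invariant natural killer T cells, have the same coding sequence with 0 differences in 342 bases, and had 1 and 0 UMIs. Only Trav11n, an annotated pseudogene with 27 UMIs, passed the rule from that family, so use of this receptor could not be measured.

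The coding sequences below, from GENCODE M21, are those whose counts carried most of the results. The first set holds the 3 copies of Trav14-3, whose shares moved in opposite directions between groups although they are 96.7 to 97.2% identical. They are Trav14d-3-dv8 (chr14:53078452-53079045), Trav14n-3 (chr14:53370077-53370575) and Trav14-3 (chr14:53763173-53763694), each a gene on the plus strand with an intron and a coding sequence of 361 bases. Bases 15 to 314 are shown, and capitals mark the 15 positions there, of 16 in the whole coding sequence, at which the copies differ.
Trav14d-3-dv8: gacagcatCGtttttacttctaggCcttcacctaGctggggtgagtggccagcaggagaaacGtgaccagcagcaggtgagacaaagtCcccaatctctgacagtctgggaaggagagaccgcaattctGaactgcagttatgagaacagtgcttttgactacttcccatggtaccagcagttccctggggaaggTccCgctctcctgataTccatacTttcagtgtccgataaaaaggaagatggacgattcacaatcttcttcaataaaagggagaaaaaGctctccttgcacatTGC
Trav14n-3: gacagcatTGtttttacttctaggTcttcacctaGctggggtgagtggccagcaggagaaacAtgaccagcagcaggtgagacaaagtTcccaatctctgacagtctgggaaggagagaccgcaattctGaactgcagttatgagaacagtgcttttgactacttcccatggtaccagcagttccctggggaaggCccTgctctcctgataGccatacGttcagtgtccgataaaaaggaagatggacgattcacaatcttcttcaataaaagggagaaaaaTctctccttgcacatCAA
Trav14-3: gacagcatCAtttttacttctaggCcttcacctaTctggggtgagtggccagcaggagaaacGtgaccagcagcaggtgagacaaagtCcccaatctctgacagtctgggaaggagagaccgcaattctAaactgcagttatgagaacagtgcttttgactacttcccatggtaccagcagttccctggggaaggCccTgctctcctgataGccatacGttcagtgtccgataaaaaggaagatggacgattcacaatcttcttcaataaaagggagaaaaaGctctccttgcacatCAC
Trav10 (chr14:53505727-53506286) and its copy Trav10n (chr14:53122114-53122610) differ at 6 of 343 bases. Bases 1 to 300 are shown, with the 6 differing bases among them in capitals.
Trav10: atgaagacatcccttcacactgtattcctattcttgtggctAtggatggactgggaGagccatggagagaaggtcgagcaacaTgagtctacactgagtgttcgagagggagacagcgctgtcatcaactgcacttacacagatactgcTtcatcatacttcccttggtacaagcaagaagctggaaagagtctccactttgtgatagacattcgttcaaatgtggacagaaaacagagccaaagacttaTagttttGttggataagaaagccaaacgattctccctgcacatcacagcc
Trav10n: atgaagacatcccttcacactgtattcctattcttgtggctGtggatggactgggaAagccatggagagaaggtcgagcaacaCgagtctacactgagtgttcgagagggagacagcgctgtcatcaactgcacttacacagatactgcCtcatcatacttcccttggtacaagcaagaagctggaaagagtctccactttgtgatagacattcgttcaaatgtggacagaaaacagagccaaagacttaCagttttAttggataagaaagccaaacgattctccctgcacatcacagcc
Trav7-3 (chr14:53443249-53443839) and Trav7d-3 (chr14:52744249-52744840) differ at 2 of 337 bases, in capitals within bases 1 to 300. Of the 50-base stretches of their transcripts, which also hold bases outside the coding sequence, 29.2% of those of Trav7-3 and 30.9% of those of Trav7d-3 are unique within the Trav group.
Trav7-3: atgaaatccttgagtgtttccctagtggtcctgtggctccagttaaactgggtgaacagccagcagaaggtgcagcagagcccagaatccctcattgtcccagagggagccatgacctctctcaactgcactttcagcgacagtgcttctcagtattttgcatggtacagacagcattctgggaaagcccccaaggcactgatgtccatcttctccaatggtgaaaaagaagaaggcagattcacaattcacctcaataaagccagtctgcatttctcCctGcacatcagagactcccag
Trav7d-3: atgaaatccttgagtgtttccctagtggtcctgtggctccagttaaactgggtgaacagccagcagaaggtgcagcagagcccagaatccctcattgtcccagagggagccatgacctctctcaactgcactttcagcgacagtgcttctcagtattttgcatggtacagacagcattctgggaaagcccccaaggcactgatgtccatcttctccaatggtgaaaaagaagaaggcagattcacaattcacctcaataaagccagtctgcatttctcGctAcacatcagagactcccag

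The T cells numbered 10695 and 12773 in the sgArid1a libraries and 7636 and 7157 in the sgScr libraries, with 39285383 and 81460688 UMIs against 35642152 and 32201336. A cell was assigned a leading Trav segment where one segment reached 2 UMIs and outnumbered each of the others. This was possible in 2608 and 4821 cells of sgArid1a (24.4 and 37.7%) and in 2651 and 2421 cells of sgScr (34.7 and 33.8%), 12501 in all. The median UMIs per T cell were 2407 and 4025 in sgArid1a and 3750 and 3597 in sgScr, so sgArid1a replicate 1 was the shallowest. Among 55 B and myeloid cells set aside, 23.6% also had a leading Trav (Wilson 95% interval 14.4 to 36.3), with a median of 4983 UMIs against 3463 in T cells. Whether free RNA or doublets gave these calls was not tested.

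Libraries of one group carried the same frequent receptors. A cell with a leading Trav and a leading beta chain segment (Trbv, called the same way) gives a pair. Of the 10 most frequent pairs in a library, 9 were shared between the sgArid1a libraries and 7 between the sgScr libraries, whereas libraries of different groups shared 0 or 1. Shared cell barcodes were few. Any pair of libraries had 78 to 231 in common, and of the 4 to 17 of these with a leading Trav in both, 0 to 3 had the same one. Whether the libraries of a group came from one pool of cells is not stated, and a difference between groups cannot be told apart from a difference between sets of clones.

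Over all T cells, the segments were spread widely. Of the 77 members, 75 led at least 1 cell, with a median of 99 cells, and the 12 most frequent led 49.5% of all called cells. The most frequent was Trav13-1 with 1038 cells. It led 7.02 and 8.13% of called cells in sgArid1a and 9.20 and 9.05% in sgScr, and the test did not pass (log2 difference -0.24 ± 0.11 SE, adjusted p = 0.0775, edgeR's quasi-likelihood test with Benjamini-Hochberg adjustment over Trav and Trbv segments together). Next came Trav10 with 882 cells, Trav12-2 with 818, Trav12-1 with 545 and Trav14n-3 with 504. Trav6-7-dv9 with 326 cells (log2 -0.09 ± 0.20 SE) and Trav8d-2 with 296 (log2 -0.01 ± 0.21 SE) did not pass the test. Trav21-dv12 led 1.19 and 1.10% in sgArid1a and 1.06 and 1.07% in sgScr, and did not pass the test.

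Between groups, the number of cells per leading segment was compared for the 62 members with at least 10 such cells. In sgArid1a, 8 were higher, 8 were lower and 46 did not pass. Of all 84 Trav and Trbv segments tested, 35.7% were called (14.3% higher and 21.4% lower), so the members' share of calls was no greater than that of all segments. The median log2 difference was -0.10 over the members and -0.13 over all segments. The exact permutation test of 2 against 2 libraries cannot go below p = 0.33, the value for each of these 16 segments.

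Trav10 rose most. It led 11.6 and 10.3% of called cells in the sgArid1a libraries, against 1.66 and 1.65% in the sgScr libraries. The log2 difference was 2.70 ± 0.16 SE (adjusted p = 9.7e-37, edgeR). In sgArid1a, 84.0% of the 763 Trav10 cells with a leading Trbv used Trbv13-1, while in sgScr the most frequent partner was Trbv3, in 12.5% of 72 cells. The Trav10 and Trbv13-1 pair made up 12.6 and 9.42% of paired cells in sgArid1a and 0.134 and 0.0985% in sgScr. The other copy, Trav10n, did not follow it, with 0.192 and 0.415% in sgArid1a and 0.641 and 0.496% in sgScr, and did not pass the test.

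The Trav14-3 copies moved in opposite directions. Trav14d-3-dv8 led 5.71 and 4.34% of called cells in sgArid1a, against 0.943 and 1.24% in sgScr (log2 2.16 ± 0.21 SE). Trav14n-3 led 1.88 and 1.95% in sgArid1a, against 6.98 and 7.27% in sgScr (log2 -1.89 ± 0.16 SE). Trav14-3 itself led 0.767 and 0.913% in sgArid1a, against 2.34 and 2.48% in sgScr (log2 -1.48 ± 0.27 SE). In each case both libraries of one group lay above both of the other. The main partner of Trav14d-3-dv8 in sgArid1a was Trbv31, in 46.8% of its 231 paired cells. Trav14n-3 in sgScr was paired with 19 different Trbv segments, of which Trbv16 was the most frequent at 24.6% of 321 cells. Summed, the Trav14-3 copies led 8.38 and 7.22% in sgArid1a and 10.2 and 11.0% in sgScr. This sum was called lower in sgArid1a (log2 -0.47 ± 0.11 SE, adjusted p = 0.000401, edgeR). When the 9 symbols of the Trav14 family were counted as one, it led 13.5 and 11.3% in sgArid1a and 14.1 and 15.6% in sgScr. The family was also called lower (log2 -0.28 ± 0.10 SE, adjusted p = 0.0131, edgeR).

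Among the other segments that were higher in sgArid1a, Trav7-3 led 2.07 and 3.13%, against 0.83 and 0.413% in sgScr (log2 2.10 ± 0.29 SE), and 79.3% of its 198 paired cells used Trbv20. Trav7d-3, which differs from it at the 2 coding positions printed above in capitals, led 1.46 and 2.16% in sgArid1a and 1.06 and 0.496% in sgScr (log2 1.26), and its main partner in sgArid1a was Trbv16 in 59.7% of paired cells. Trav12-1 led 5.75 and 4.52% in sgArid1a and 3.39 and 3.59% in sgScr (log2 0.52), with Trbv20 in 41.1% of 316 paired cells. Trav6d-4 (log2 1.04), Trav7-4 (log2 0.77) and Trav2 (log2 0.71) completed the rises. In sgArid1a, Trbv19 was the partner in 51.2% of 127 paired Trav2 cells.

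Of the segments that were lower, Trav1 led 1.07 and 0.747% in sgArid1a and 2.19 and 2.97% in sgScr (log2 -1.56 ± 0.26 SE). Trav1 is known as the segment of mucosal-associated invariant T cells. Its main partner in sgScr was Trbv16, in 52.5% of 118 paired cells. Trav6-1 led 0.307 and 0.477% in sgArid1a and 0.981 and 1.07% in sgScr (log2 -1.30 ± 0.36 SE). The remaining falls were smaller: Trav13n-4 (log2 -0.88), Trav3-1 (log2 -0.76), Trav12-3 (log2 -0.70) and Trav12-2 (log2 -0.39).

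**Figure D1:**
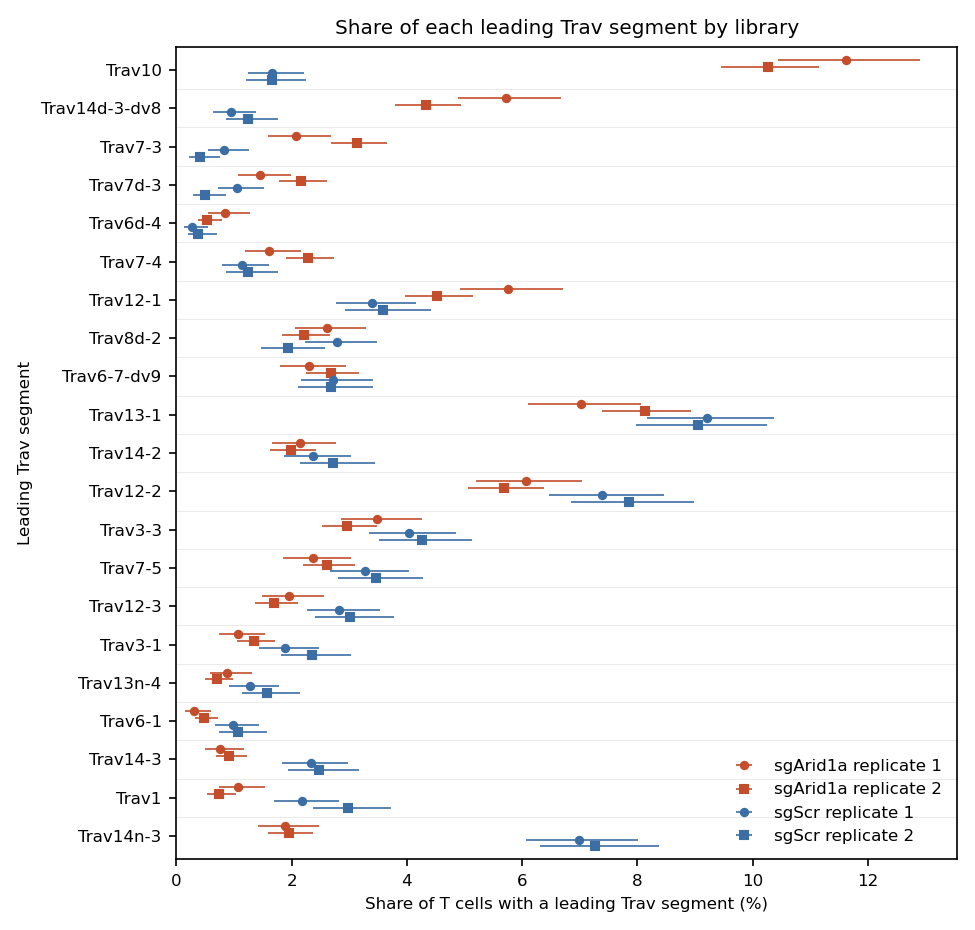
Share of T cells with a leading Trav segment that each named segment led (horizontal axis, percent), with 1 point per library and Wilson 95% intervals, for the most frequent segments and those with the largest called differences. Trav10, at the top, lay at 11.6 and 10.3% in sgArid1a against 1.66 and 1.65% in sgScr, and Trav14n-3, at the bottom, at 1.88 and 1.95% against 6.98 and 7.27%.

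The calls between groups depended on counting every cell. When each pair of Trav and Trbv was counted once per library, edgeR called 0 of 60 members, and 0 had an unadjusted p under 0.05 (0% of the 81 segments of both chains were called). Trav10 then had a log2 difference of -0.15, Trav7-3 one of -0.21 and Trav14n-3 one of -0.37. Counting a pair once flattens its numbers, because a Trav segment has at most about as many pairs as there are Trbv segments. Leaving out the cells of the 10 most frequent pairs of each group kept all others, and then 3 members were higher and 3 lower (21.4% of 84 segments were called, 8.33% higher and 13.1% lower). Trav14d-3-dv8 stayed higher (log2 1.95) and Trav14n-3 stayed lower (log2 -0.98), while Trav10 (log2 0.57, adjusted p = 0.082, edgeR) no longer passed. Cells without a leading Trbv have no pair and were never left out, whichever clone they belong to. A leading Trbv was found in 66.1% of cells led by Trav14d-3-dv8, 88.3% of those led by Trav14n-3 and 94.7% of those led by Trav10. Whether unpaired cells of the same clones gave the calls that stayed was not tested. Without either sgScr library 10 and 7 members were called in place of 16, and 7 were called whichever library was left out: Trav10, Trav14d-3-dv8, Trav7-3, Trav14n-3, Trav1, Trav14-3 and Trav6-1.

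**Figure D2:**
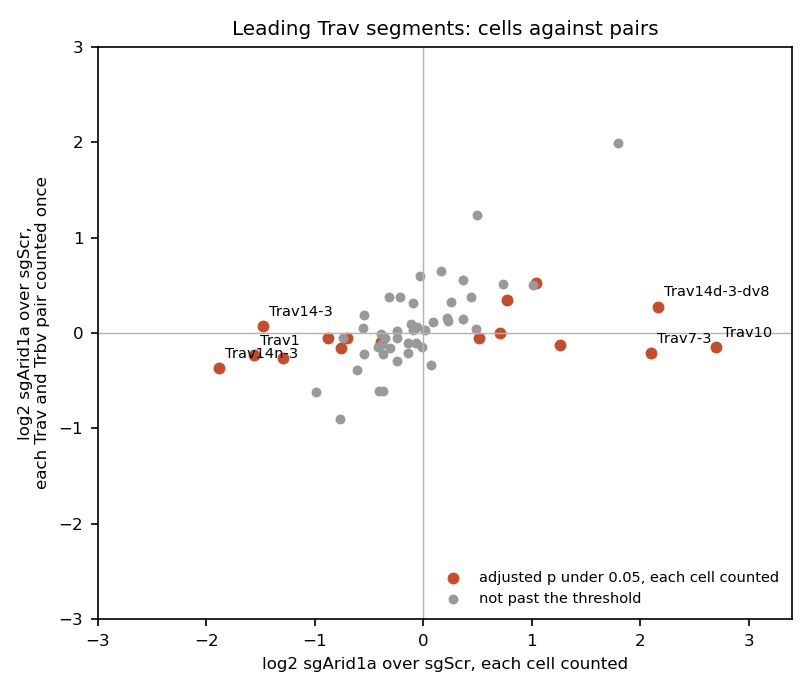
Log2 difference of each tested member, sgArid1a over sgScr, with each cell counted (horizontal axis) and with each Trav and Trbv pair counted once per library (vertical axis), 1 point per segment. Trav10 lies at 2.70 and -0.15, and the called segments spread along the horizontal axis but stay near 0 on the vertical axis.

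Single pairs are given as shares, with no test. The Trav7-3 and Trbv20 pair made up 2.23 and 2.73% of paired cells in sgArid1a and 0 of 2244 and 0 of 2031 in sgScr, which allows shares of up to 0.134 and 0.148%. Trav12-1 with Trbv20 made up 2.47 and 1.95% in sgArid1a and 0.0891 and 0% in sgScr. Trav14d-3-dv8 with Trbv31 made up 2.13 and 1.58% in sgArid1a and 0.178 and 0.0985% in sgScr. On the sgScr side, Trav13-1 with Trbv13-1 made up 0.594 and 0.487% in sgArid1a and 2.81 and 2.36% in sgScr. Trav14n-3 with Trbv16 made up 0.099 and 0.17% in sgArid1a and 1.60 and 2.12% in sgScr. Trav13-1 with Trbv12-2 was found in every library, at 1.04 and 1.22% in sgArid1a and 0.668 and 0.640% in sgScr. The receptor contigs of the amplification kit were not analysed here, so a pair of segments may hold more than 1 clone.

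Cell states were read from clusters made without receptor segments. The exhausted-like cluster raised all 10 exhaustion markers, among them Pdcd1, Havcr2, Lag3 and Tox, and was led by the granzyme genes Gzmd, Gzmg and Gzme. A cycling-like cluster raised the same 10 markers. Naive/central memory-like cells came from 3 clusters: cluster 6 held most of them in sgArid1a replicate 1, and cluster 1 most or the largest number in the other libraries. Cells with a leading Trav numbered 300 and 530 in sgArid1a and 228 and 220 in sgScr in the exhausted-like state, and 303 and 643 in sgArid1a and 1180 and 999 in sgScr in the naive/central memory-like state.

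In exhausted-like cells a handful of segments took most of the calls, and they were different ones in the 2 groups. Trav10 led 24.3 and 22.5% of these cells in sgArid1a, against 1 of 228 cells (0.439%) and 0 of 220 in sgScr, where a count of 0 allows up to 1.36%. Trav14d-3-dv8 led 24.3 and 19.8% in sgArid1a, against 0 and 0.909% in sgScr. Trav14n-3 led 2.33 and 2.83% in sgArid1a, against 37.7 and 37.7% in sgScr. Trav13-1 led 2.33 and 2.45% in sgArid1a, against 14.9 and 14.5% in sgScr, and Trav1 1.0 and 1.13% against 7.46 and 11.4%. Trav12-1 led 12 and 11.1% in sgArid1a, against 0 and 0.909% in sgScr, and Trav7-3 5.33 and 11.3% against 0.439 and 0%.

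In naive/central memory-like cells the shares of the same segments lay closer together. Trav10 led 2.97 and 1.87% in sgArid1a and 2.12 and 2.10% in sgScr. Trav14n-3 led 3.30 and 2.80% in sgArid1a and 2.88 and 2.30% in sgScr, and Trav13-1 5.94 and 7.62% in sgArid1a and 6.69 and 7.11% in sgScr. The libraries of both groups overlapped for all 3 of these segments. In cycling-like cells Trav10 led 38.9 and 35.6% of them in sgArid1a, against 1.39 and 0% in sgScr, and Trav14n-3 1.27 and 2.07% against 24.3 and 23.0%. In memory-like cells Trav13-1 led 14.5 and 15.1% in sgArid1a and 10.4 and 10.4% in sgScr, and Trav12-2 led 4.74 and 6.84% in sgArid1a and 10.9 and 9.71% in sgScr.

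The difference of the state contrast between groups was tested as an interaction, with the library as a block. Of 56 members, 5 were higher and 6 lower in sgArid1a (28.2% of the 78 segments of both chains were called, 11.5% higher and 16.7% lower), with a median log2 value of 1.11 over members and 0.60 over all segments. Trav10 had an interaction of 6.48 ± 0.76 SE on the log2 scale, Trav7-3 one of 5.85, Trav14d-3-dv8 one of 5.75 and Trav12-1 one of 4.84. Trav14n-3 had -4.00 ± 0.47 SE and Trav13-1 -2.63 ± 0.39 SE. These 6 were called whichever library was left out. The calls of Trav1, Trav3-1, Trav13n-4, Trav14-3 and Trav6n-6 were each lost without at least 2 of the 4 libraries in turn, and 6 members were called without sgScr replicate 2 and 7 without sgArid1a replicate 2.

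Across all 4 libraries, the exhausted-like state was compared with the naive/central memory-like state. Of 56 members, 0 were called higher and 12 lower by edgeR, and 2 were higher and 19 lower at an unadjusted p under 0.05 (25.6% of 78 segments were called, 2.56% higher and 23.1% lower). The median log2 value was -1.65 over members and -1.61 over all segments. These are shares of the called cells of a state, so a large share of some segments lowers the shares of the others. How much of each fall this gives was not tested. Trav3-3 led 3, 2, 1 and 0 exhausted-like cells in sgArid1a replicates 1 and 2 and sgScr replicates 1 and 2, against 15, 35, 58 and 42 naive/central memory-like cells (log2 -3.46 ± 0.92 SE, adjusted p = 0.00549, edgeR). Trav12-2 led 2, 6, 2 and 4 against 32, 42, 89 and 87 (log2 -2.89). Trav8-1, Trav19 and Trav13-4-dv7 also fell. Trav13d-1 and Trav6-1 led 0 exhausted-like cells in every library, against 1, 3, 13 and 6 and against 1, 2, 11 and 8 naive/central memory-like cells. None of the 12 calls held whichever library was left out: 6 members were called without sgScr replicate 1, 2 without sgScr replicate 2, 1 without sgArid1a replicate 1 and 0 without sgArid1a replicate 2 (2 higher and 13 lower at an unadjusted p under 0.05).

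**Figure D3:**
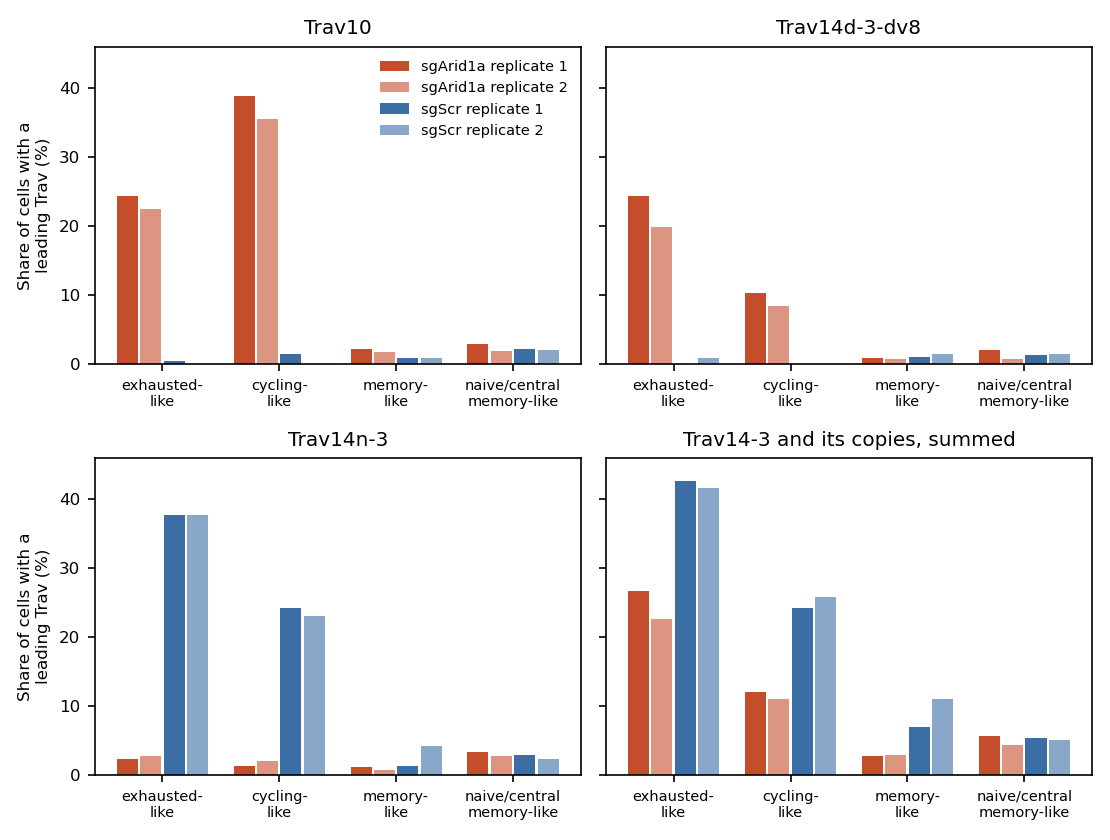
Share of cells with a leading Trav segment (vertical axis, percent) in 4 cell states, 1 bar per library, for Trav10, for Trav14d-3-dv8, for Trav14n-3 and for Trav14-3 summed with its copies. In exhausted-like cells Trav10 and Trav14d-3-dv8 stand high in sgArid1a (24.3 and 22.5%, and 24.3 and 19.8%), Trav14n-3 in sgScr (37.7 and 37.7%), and the summed copies in all 4 libraries.

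Summing near-identical copies gave 1 sum, that of the Trav14-3 copies, that was high in exhausted-like cells of both groups. It was a different copy in each group, so the groups did not share 1 segment. Trav14-3 with its copies led 26.7 and 22.7% of exhausted-like cells in sgArid1a and 42.6 and 41.6% in sgScr. In naive/central memory-like cells the same sum led 5.61 and 4.33% in sgArid1a and 5.34 and 5.10% in sgScr. As a share of called cells, every library was thus several times higher in the exhausted-like state. The copy that made up most of the sum was Trav14d-3-dv8 in sgArid1a and Trav14n-3 in sgScr. With uncalled cells in the total, the sum led 80 of 1067 and 120 of 1295 exhausted-like cells in sgArid1a. In sgScr it led 98 of 355 and 92 of 362. Of naive/central memory-like cells it led 17 of 2622 and 28 of 2933 in sgArid1a, and 63 of 4435 and 51 of 4029 in sgScr. Uncalled cells could not be assigned a segment. The log2 difference between states was 2.67 ± 0.67 SE (adjusted p = 0.000986, edgeR), and 3 of 41 summed segments were higher and 11 lower (38.1% of 63 segments of both chains were called, 9.52% higher and 28.6% lower). Its interaction with group did not pass (log2 -0.68 ± 0.30 SE, adjusted p = 0.0796, edgeR). Trav1 (adjusted p = 0.0286) and Trav7-3 (adjusted p = 0.0217) were the other rises by edgeR over the 4 libraries together, and both had an interaction with group. Trav1 led 1.0 and 1.13% of exhausted-like and 0.99 and 1.24% of naive/central memory-like cells in sgArid1a, against 7.39 and 11.3% and then 0.847 and 0.7% in sgScr (interaction log2 -3.61, adjusted p = 0.00235, edgeR). Trav7-3 with its copy led 6.67 and 13.6% of exhausted-like and 0 and 2.32% of naive/central memory-like cells in sgArid1a, against 2.17 and 1.81% and then 2.46 and 0.8% in sgScr (interaction log2 2.57, adjusted p = 0.00111, edgeR).

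This rise of the Trav14-3 copies among called cells held under each alternative tried. None of the alternatives covered cells without a call. Leaving out each library gave adjusted p-values (edgeR) between 0.00806 and 0.0426, and counting each pair once per library and state gave a log2 difference of 2.06 ± 0.26 SE (adjusted p = 0.000143). Without the 10 most frequent pairs of each group it was 2.46 (adjusted p = 0.00127, edgeR), with cells that had no leading Trbv still counted. Thinning cells to 2000 UMIs left out shallower cells, among them 3926 of the 10695 T cells of sgArid1a replicate 1. The sum then led 33.8% of 80 and 32.7% of 150 exhausted-like calls in sgArid1a. In sgScr it led 50.8% of 118 and 45.7% of 105. Of naive/central memory-like calls it led 6.19% of 113 and 3.24% of 339 in sgArid1a. In sgScr these shares were 6.2% of 532 and 5.38% of 465. Several beta chains were among the partners in paired cells. Of 156 paired Trav14n-3 exhausted-like cells in sgScr, 30.1% used Trbv16, 20.5% Trbv19, 17.9% Trbv31 and 17.9% Trbv4, with 12 partners in all. Trav14d-3-dv8 led 73 and 105 exhausted-like cells in sgArid1a, of which 94 in all were paired. Of these 94, 58.5% used Trbv31, 10.6% Trbv1 and 9.57% Trbv4, with 14 partners. By contrast, 96.3% of 190 paired Trav10 exhausted-like cells in sgArid1a used Trbv13-1, and 90.8% of 76 Trav7-3 cells used Trbv20. Over all T cells, 66.1% of cells led by Trav14d-3-dv8 had a leading Trbv, against 94.7% of those led by Trav10. Among the B and myeloid cells set aside, 61.8% had a leading Trbv. Whether partners with few cells were receptors of those cells was not tested.

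Fewer segments shared the exhausted-like cells than the naive/central memory-like cells in all 4 libraries. The effective number of segments, the inverse Simpson index in 2421 called cells, was 25.2 and 27.7 in sgArid1a and 29.6 and 28.4 in sgScr (exact permutation p = 0.33, the smallest possible). Without the 10 most frequent pairs of each group it was 34.0 and 36.7 in sgArid1a and 35.4 and 34.1 in sgScr, where the groups overlapped. In 100 cells of 1 state it was 6.79 and 7.89 in sgArid1a and 5.41 and 5.22 in sgScr for exhausted-like cells. For naive/central memory-like cells it was 23.0 and 27.0 in sgArid1a and 26.2 and 24.9 in sgScr. All 4 libraries were lower in the exhausted-like state, by 19.0 ± 1.95 on average (SD, n = 4, exact sign-flip permutation p = 0.125, the smallest possible). Cycling-like cells had 5.49 and 6.36 in sgArid1a and 10.3 and 11.0 in sgScr, and memory-like cells 18.6 and 18.1 in sgArid1a and 19.8 and 20.3 in sgScr.

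**Figure D4:**
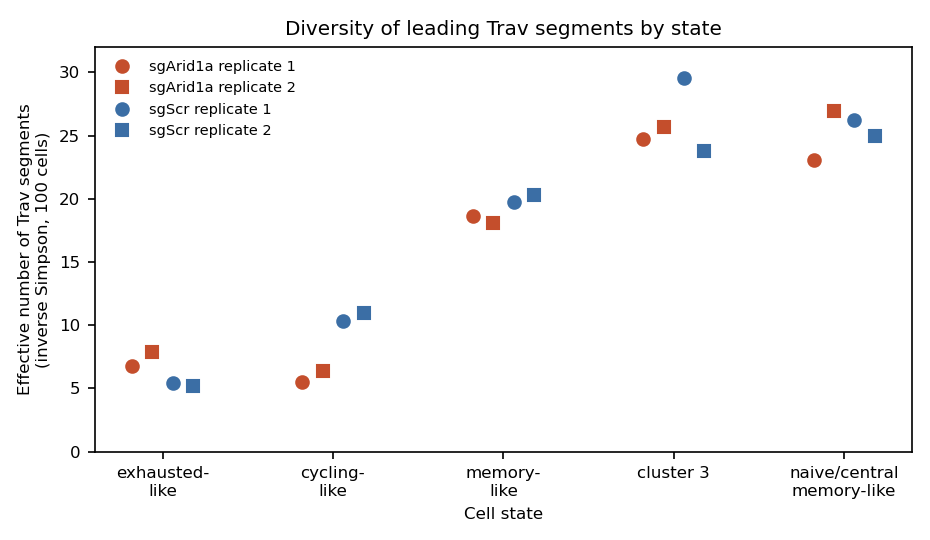
Effective number of leading Trav segments (vertical axis, inverse Simpson index in 100 cells) by cell state, 1 point per library. Exhausted-like cells had 6.79 and 7.89 in sgArid1a and 5.41 and 5.22 in sgScr, and naive/central memory-like cells had values from 23.0 to 27.0.

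The summed RNA of the segments was lower in sgArid1a. All members together had 316 and 328 CPM (UMIs scaled to the library's total) in the sgArid1a libraries, against 430 and 431 in the sgScr libraries (exact permutation p = 0.33, the smallest possible). Trac, the constant gene they are spliced to, was slightly higher, with 263 and 287 CPM in sgArid1a against 227 and 248 in sgScr (log2 0.24 ± 0.06 SE, adjusted p = 0.00563, edgeR over all genes). There were 1.20 and 1.15 Trav UMIs per Trac UMI in sgArid1a and 1.89 and 1.74 in sgScr. In such sums, fewer cells of a kind and less RNA per cell cannot be told apart.

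Segment by segment, 69 members could be tested in the fit over all genes, of which 4 were higher, 38 lower and 27 did not pass. Over all 12793 genes tested, 54.4% were called, 28% higher and 26.4% lower, so the share of members called lower was above that of all genes and the share called higher below it. The median log2 difference was -0.48 over members and -0.02 over all genes. Trav14d-3-dv8 had 19.8 and 20.5 CPM in sgArid1a and 3.48 and 4.32 in sgScr (log2 2.40 ± 0.10 SE), and Trav10 had 32.9 and 28.8 against 6.71 and 5.47 (log2 2.36 ± 0.11 SE). Trav7-3 (log2 1.54) and Trav6d-4 (log2 0.78) were the other rises, of which that of Trav6d-4 was lost without sgScr replicate 1 and without sgArid1a replicate 1. Of the 42 calls, 29 held whichever library was left out. Trav14n-3 fell most, with 5.85 and 7.14 in sgArid1a against 36.9 and 39.7 in sgScr (log2 -2.51 ± 0.08 SE), followed by Trav1 (log2 -2.29) and Trav14-3 (log2 -1.95). Trav13-1, which did not pass as a share of cells, fell as an RNA level, with 19.3 and 23.2 in sgArid1a against 38.4 and 40.2 in sgScr (log2 -0.85 ± 0.07 SE). Trav12-1 went the other way: higher as a share of cells, it had a log2 difference of 0.09 as an RNA level and did not pass. Trav14-1 did not pass either (log2 0.26). Trav7d-3 was called higher as a share of cells but lower as an RNA level. It had 4.48 and 7.81 CPM in sgArid1a against 9.26 and 9.47 in sgScr (log2 -0.52 ± 0.16 SE, adjusted p = 0.016, edgeR).

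By state, both sgArid1a libraries lay below both sgScr libraries in 9 of 12 states or unnamed clusters, and the groups overlapped in the other 3 (effector-like, heat-shock-like and Ly49-positive-like cells). No test was run by state. Exhausted-like cells had 222 and 246 Trav CPM in sgArid1a, against 593 and 631 in sgScr. Cycling-like cells had 208 and 203 in sgArid1a, against 397 and 398 in sgScr. Early activated-like cells had 310 and 328 in sgArid1a, against 480 and 474 in sgScr, and memory-like cells 508 and 536 in sgArid1a, against 621 and 574 in sgScr. Naive/central memory-like cells had 292 and 319 in sgArid1a and 331 and 322 in sgScr, and Ly49-positive-like cells, which overlapped between groups, 473 and 514 in sgArid1a and 467 and 536 in sgScr. Trac in exhausted-like cells was 286 and 293 in sgArid1a and 375 and 391 in sgScr. The share of exhausted-like cells with a leading Trav moved with this level, at 28.1 and 40.9% in sgArid1a and 64.2 and 60.8% in sgScr. After thinning each cell to 2000 UMIs, which left out shallower cells, it was 7.90 and 11.8% in sgArid1a (1013 and 1275 cells) and 33.5 and 29.1% in sgScr (352 and 361 cells). In naive/central memory-like cells the thinned share was 10.3 and 13.1% in sgArid1a and 12.7 and 12.6% in sgScr, which overlapped, and the unthinned share was 11.6 and 21.9% in sgArid1a and 26.6 and 24.8% in sgScr.

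**Figure D5:**
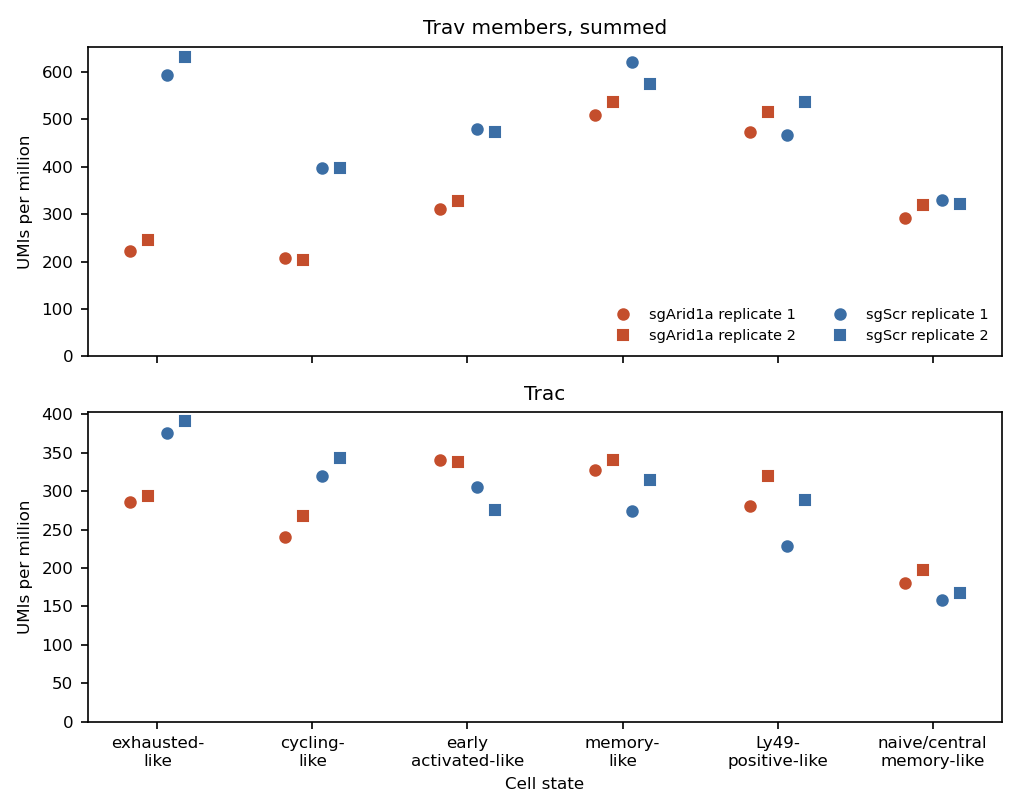
CPM (vertical axes) of all Trav members summed (upper panel) and of Trac (lower panel) by cell state, 1 point per library. The members' sum in exhausted-like cells was 222 and 246 in sgArid1a against 593 and 631 in sgScr, and in naive/central memory-like cells 292 and 319 against 331 and 322.

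The chance of a Trav call in exhausted-like cells varied with the beta chain, so the shares above describe only the receptors whose Trav segment was counted well. In sgArid1a, 1 of 44 and 6 of 54 cells with Trbv2 had a leading Trav, as did 4 of 56 and 5 of 51 with Trbv3. With Trbv31 the share was 88.9 and 94.4%. With Trbv13-1 it was 38.8 and 48.0% in sgArid1a, against 91.3 and 97.0% in sgScr. Whether the uncalled cells use segments whose reads are dropped as shared between copies was not tested.

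Other genes of receptor assembly were at or near the floor or moved little. Rag1 and Rag2, the recombinase that joins the segments in the thymus, had 0 UMIs in every library, and Ptcra, the surrogate alpha chain of thymocytes, had 1 and 3 in sgArid1a and 0 and 0 in sgScr. Dntt, the terminal transferase that adds bases at joints, had 19 and 15 UMIs in sgArid1a and 32 and 32 in sgScr (log2 -1.69, adjusted p = 0.0025, edgeR). Of 9 receptor complex and coreceptor genes, Trac, Trbc1 (log2 0.40), Cd3g (log2 0.45) and Cd8a (log2 0.37) were higher, Cd247 (log2 -0.45) and Cd8b1 (log2 -0.29) were lower, and Trbc2, Cd3d and Cd3e did not pass. In the same fit 54.4% of all 12793 genes were called, 28% higher and 26.4% lower, so calls among a few genes say little about receptor genes. Arid1a itself had 74.1 and 72.6 CPM in sgArid1a, against 85.2 and 93.6 in sgScr (log2 -0.26, adjusted p = 0.00423, edgeR). A 5-prime count does not show whether the guide cut the gene.

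A second Trav segment, which a cell can express because both alleles may rearrange, was counted with at least 2 UMIs after near-identical copies were merged. It was found in 4.52 and 9.98% of called cells in sgArid1a and in 12.6 and 12.1% in sgScr (exact permutation p = 0.33, the smallest possible). After thinning to 2000 UMIs the shares were 1.44 and 2.03% in sgArid1a and 3.5 and 3.16% in sgScr. The same count for Trbv, where a second functional chain is rarer, gave 8.52 and 15% in sgArid1a and 13.0 and 12.5% in sgScr before thinning. After thinning it gave 4.20 and 4.21% in sgArid1a and 4.08 and 4.92% in sgScr, and the groups overlapped. Among cells with 1 Trbv, a second Trav was found in 3.96 and 7.68% in sgArid1a and 10.7 and 10.5% in sgScr, and among cells with 2 Trbv, which include doublets, in 12.5 and 22.1% in sgArid1a and 27.7 and 26.4% in sgScr.

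Segments shared with the delta locus were also examined for Trdc, the delta constant gene. Trdc was detected in 50 of 1391 cells led by a dv-named segment (3.59%, Wilson 95% interval 2.74 to 4.71) and in 59 of 11110 cells led by another (0.531%, 0.412 to 0.684). Most of the first came from 1 segment: Trav13-4-dv7 led 177 cells, of which 37 had Trdc (20.9%, 15.6 to 27.5). Trav14d-3-dv8, in spite of its name, had 0 such cells of 413.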

How the data were processed

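The deposited files hold UMI counts, made by the authors as 1 matrix of whole numbers per library over 32285 genes, with no normalization. Per the file headers they come from Cell Ranger 6.0.1, while the submitters' processing notes name Cell Ranger 3.0.2, Seurat and mm10, another name of GRCm38. Which version applies was not settled. The annotation release was not given in the sources used here.

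Barcodes needed 500 or more genes and no more than 10% of UMIs from mitochondrial genes, which 38316 of 39473 met. No doublet caller was run. Cells with 2 or more Trbv segments were left out as an alternative. Counts scaled to 10000 per cell were clustered in scanpy 1.11.5 without receptor segments (2000 variable genes, 30 components, 15 neighbours, Leiden resolution 0.8, no batch integration). A cluster took the name of a state where at least 3 of that state's markers were raised and any was among the cluster's 10 leading genes. Where several states qualified, the one with most markers among those leading genes was taken. The names are rebuilt and may differ from the study's. A cluster of 55 B and myeloid cells was left out.

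UMI sums and cells per leading segment were tested with edgeR 4.0.16 in R 4.3.3 (quasi-likelihood, Benjamini-Hochberg adjusted p under 0.05). UMI sums used TMM and filterByExpr. Cell numbers used Trav and Trbv segments with at least 10 cells and the logarithm of called cells per chain as offset. A state contrast kept the library as a block. Both steps were run on simulated counts. Those for cell numbers held no clones and no spread between libraries beyond counting error, so they cannot show how often clones alone give a call. Coding sequences, coordinates and unique 50-base stretches come from GENCODE M21 for GRCm38, joined by Ensembl identifier. DESeq2 1.42.0 was an alternative. Wilson intervals are at 95%, a count of 0 allows up to 3 counts, and both cover counting error only. The segments, lists and alternatives were chosen with earlier results of these data known. Named segments were the 12 most frequent, the 6 largest rises and 6 largest falls between groups, up to 5 of each between states, the 3 leading each library, and Trav1, Trav10, Trav11, Trav11d, Trav14-1 and Trav21-dv12. Other segments were named after their values were seen.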

Additional observations from a re-analysis of the deposited data

Results flagged for a closer look

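The contrast between exhausted-like and naive/central memory-like cells differed between groups for 11 segments (interaction in edgeR, adjusted p under 0.05), given as the log2 value in sgArid1a minus that in sgScr. It was 6.71 for Trav6n-6, 6.48 for Trav10, 5.85 for Trav7-3, 5.75 for Trav14d-3-dv8 and 4.84 for Trav12-1. It was -6.58 for Trav14-3, -4.53 for Trav13n-4, -4.00 for Trav14n-3, -3.63 for Trav1, -3.08 for Trav3-1 and -2.63 for Trav13-1. Trav6n-6 led 0 exhausted-like cells in both sgScr libraries and Trav14-3 led 0 in both sgArid1a libraries, so their fitted values depend on the prior count of the model and give no size.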

How the results depend on the processing

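In place of 16 members called between groups as shares of cells, 10 were called with near-identical copies summed, 6 per family, 0 with each pair counted once and 6 without the 10 most frequent pairs of each group, and 7 to 20 with 1 library left out. In place of 12 called between states, 7 were called with 3 UMIs for a call, 1 with each pair counted once, 4 without cells with 2 Trbv segments, 3 without the 10 most frequent pairs, and 0 to 6 with 1 library left out. The call with each pair counted once was Trav14n-3, higher in exhausted-like cells (log2 2.01 ± 0.45 SE), so none of the 12 falls was called there. With copies summed, 14 were called between states, 1 with each pair also counted once, 3 without the 10 most frequent pairs, 6 without sgScr replicate 2, 5 without sgArid1a replicate 2, and 5 to 12 over all 4 libraries left out in turn. In place of 11 interactions, 7 were called with copies summed, 2 with each pair counted once (Trav14d-3-dv8 and Trav14n-3) and 6 to 12 with 1 library left out.

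As log2 differences between groups, Trav10 (-0.15), Trav7-3 (-0.21), Trav7d-3 (-0.13), Trav12-1 (-0.0526) and Trav14-3 (0.0718) turned with each pair counted once. Trav12-1 (-0.13), Trav14-1 and Trav14d-3-dv8 (-0.28 each), Trav6d-4 (-0.20) and Trav7-5 (0.43) turned per family, Trav14d-3-dv8 (-0.47) with copies summed, and Trav12-1 (-0.24) and Trav3-1 (0.0008) without the 10 most frequent pairs. Between states, Trav7-5 turned with each pair counted once (0.0379). A family or copy sum adds other segments to the named one. For the other turns the cause was not tested. Of 813 values of 71 results for named segments, 648 kept their side of the threshold, 122 lost a call, 29 gained one and 14 turned where the reported value or its alternative was called. A change of sign between 2 values that both missed the threshold is not among the 14.

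The log2 ratio of diversity, -0.13, was -0.0336 with 3 UMIs for a call, -0.0339 with copies summed, 0.0248 without the 10 most frequent pairs, and -0.20 to -0.07 with 1 library left out. That of cells with a second Trav, -0.77, was -1.45 without sgArid1a replicate 2 and -0.31 without sgArid1a replicate 1. That of the summed level, -0.42, was -0.63 per Trac UMI, -0.38 without the most frequent pair of each group, -0.39 without cells with 2 Trbv segments, and -0.44 to -0.39 with 1 library left out. The cause of these shifts was not tested.

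The 42 calls on UMI sums became 38 to 41 with 1 library left out, with 29 of the 42 held each time, and 30 with DESeq2. With the replicate number as a block they were 43, and the 16 calls on cells were 15. Same-numbered libraries did not deviate together (r = -0.0425 over 12793 genes). With 2 libraries per group, this value cannot show whether same-numbered libraries shared a preparation step or a pool. Leiden resolution 0.5 gave no cluster named exhausted-like and so no value. A cluster of 3876 cells led by Gzmd and Gzmg there raised all 10 exhaustion markers. It was named early activated-like, because no exhaustion marker was among its leading genes. With 2 libraries per group, clone sets and groups cannot be told apart, and the shallow sgArid1a replicate 1 limits calls per cell. Settings chosen after seeing the data were those without the 10 most frequent pairs, those that combine summed copies with another change, all for the interaction, diversity in states with at least 100 called cells per library, a second Trav of another family, the summed level without cells with 2 Trbv segments, and the thinned share of the Trav14-3 copies.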
